A study of Mus musculus with 18 samples.

Results

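Loss of EED was examined in resting mouse macrophages, before any lipopolysaccharide (LPS, a bacterial cell wall component) was given. The genes described are all 227 that the authors listed for EED KO against wild type (WT) in unstimulated cells, of 816 distinct gene symbols listed over the 3 states of the series. Those 227 were selected by the authors on this very contrast, so being listed is a description of the selection and gets no test of its own. EED KO cells came from Eed fl/fl; LysM-Cre+/- mice, in which Cre recombinase removes the loxP-flanked part of Eed in cells of the myeloid lineage. WT cells came from littermate controls, and whether those carried loxP sites or Cre is not given in the sources used here, nor is the age of the mice. Bone marrow cells of both genotypes were grown into macrophages with L929-conditioned medium, and each unstimulated group has 3 libraries of the 18 in the series. The other 4 groups, also of 3 libraries each, were EED KO and WT cells primed with LPS at 100 ng/ml for 24 h, and EED KO and WT tolerant cells that were primed, rested for 48 h and given LPS at 10 ng/ml for a time that the labels do not give.

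EED is the subunit of Polycomb repressive complex 2 (PRC2) that recognises methylated histone H3 and stimulates the catalytic subunit, EZH2 or EZH1, to methylate neighbouring histones. Genes under this mark are held silent, and they are typically regulators of development, growth factor signalling and cell identity whose promoters are rich in CpG dinucleotides. In macrophages most lineage-foreign genes are kept off, while genes for phagocytosis, antigen presentation and inflammation are kept ready for use.

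Each deposited row gives a gene, a log fold change of EED KO over WT, an unadjusted p and an adjusted p. The log base was taken as 2, which the file headers do not state. Values of single libraries were not used here, so neither the spread between libraries nor overlap of the groups can be shown. An approximate standard error (SE) was derived for each row from the size of the log2 fold change and the normal quantile that its unadjusted p implies. "Rose" and "fell" are used only for genes with an adjusted p under 0.05. The ratio of adjusted to unadjusted p was largest for Eed and corresponds to at least 413233 tests, against 49997 genes in the RefSeq table of mouse genes. A row may therefore stand for part of a gene, and its p was adjusted more severely than a test per gene would require.

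EED KO cells had higher levels than WT cells for 174 of the 227 genes and lower levels for 53. Of these, 38 rose and 6 fell, which is 16.7% and 2.64% of all listed rows, or 19.4% together. The ratio of adjusted to unadjusted p places the last of these 44 rows at about rank 271 among all tests. Most tests that passed are therefore not among the listed rows, and which genes they belong to is not given. The median log2 fold change computed from the authors' deposited table was 1.11 among the higher genes and -1.0 among the lower ones. The lists reach down to an absolute log2 fold change of 0.75 and up to an unadjusted p of 0.0497, and 20 higher and 4 lower genes exceeded 2. Around the adjusted threshold, Slco2b1 was the last gene inside with an adjusted p of 0.0475, and Fkbp9 the first outside with 0.0557, per the authors' deposited table. In 93 rows the adjusted p was 1, 71 of them higher and 22 lower.

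**Figure D1:**
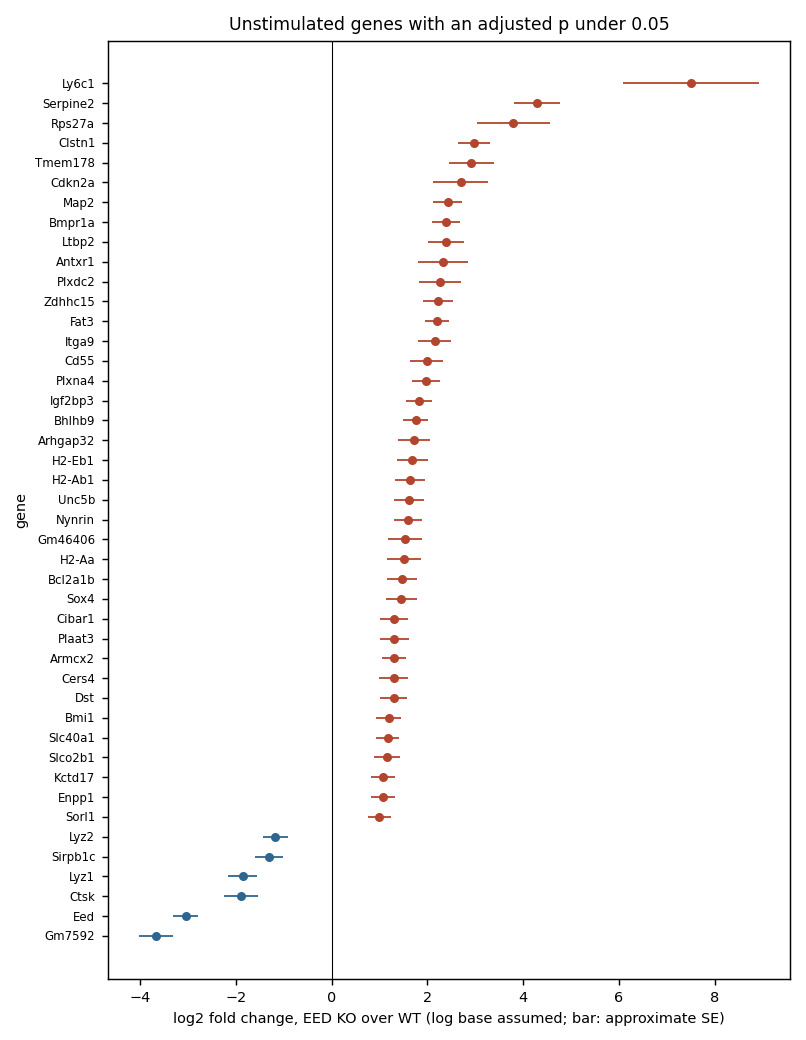
Log2 fold change of EED KO over WT (x axis, base assumed) for each of the 44 unstimulated genes with an adjusted p under 0.05 (y axis), with bars for the approximate SE. The 38 genes that rose lie between 1.00 (Sorl1) and 7.51 (Ly6c1), and the 6 that fell between -3.67 (Gm7592) and -1.17 (Lyz2).

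Eed itself fell by 3.04 on the log2 scale in EED KO cells (8.23-fold lower, SE 0.26, adjusted p = 1.44e-25) per the authors' deposited table, and it was the 1 listed gene among 15 PRC2 subunits. Because a row can stand for part of a gene, this value need not describe the whole transcript. Among 22 subunits of PRC1, the partner complex that ubiquitinates histone H2A, 2 were listed and both were higher. Bmi1, a ring-finger subunit of PRC1, rose by 1.19 (SE 0.26, adjusted p = 0.0104), and Bcor, a scaffold of a variant PRC1, stood at 0.86 (SE 0.33, adjusted p = 1) per the authors' deposited table. Jazf1, a subunit of a histone acetyltransferase complex, and Kdm5b, a demethylase of histone H3, stood at 0.93 (SE 0.29, adjusted p = 0.675) and 0.90 (SE 0.29, adjusted p = 0.783) per the authors' deposited table. None of 11 genes for demethylases of the PRC2 mark (H3K27) and reader or eraser partners was listed, a set without Kdm5b. In bulk RNA, a lower level per cell and a smaller share of cells that express a gene cannot be told apart, so the value of Eed does not say how many cells still carried an intact gene.

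The listed genes were sorted by known function into 19 groups, chosen after the values had been seen, and 33 genes were left unplaced. Neuronal genes, growth factor genes and transcription factors were higher without exception among the listed members, while receptors of the immunoglobulin superfamily were mostly lower. For scale, 76.7% of all listed rows were higher, so a majority of higher members in a group is what the whole list shows too.

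**Figure D2:**
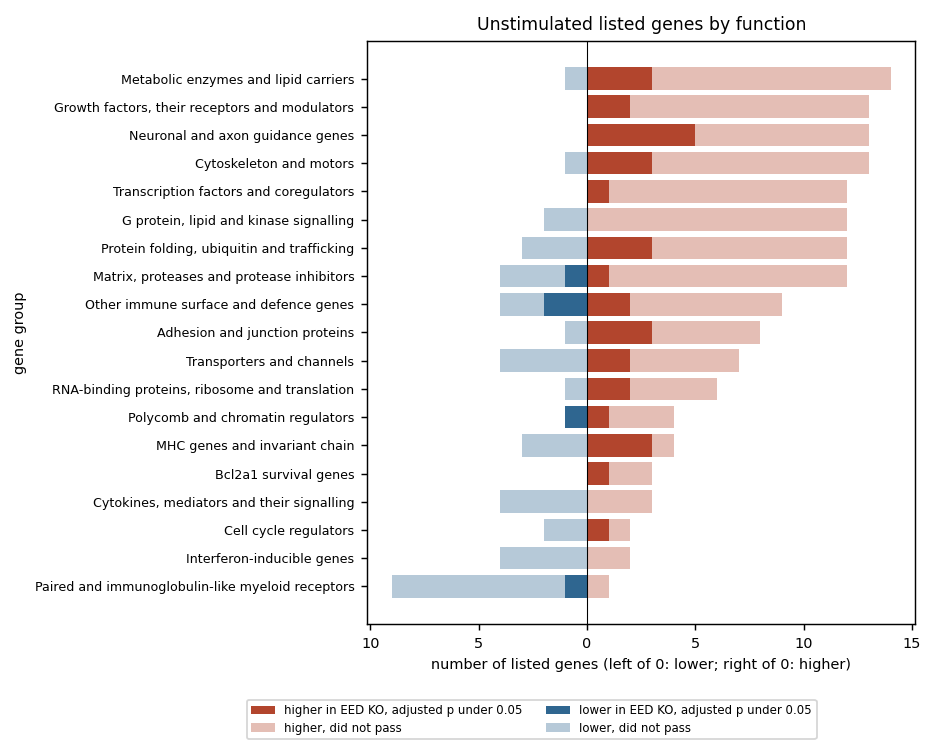
Number of unstimulated listed genes per functional group, with genes higher in EED KO to the right of 0 and genes lower to the left, and those with an adjusted p under 0.05 in dark colour. All 13 neuronal genes lie to the right, 5 of them dark, and 9 of 10 immunoglobulin-like myeloid receptors lie to the left, 1 of them dark.

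Neuronal and axon guidance genes were the group with the most members that rose, 5 of 13, and all 13 were higher. Clstn1, a calsyntenin that links vesicles to kinesin and sits in synaptic membranes, rose by 2.97 (7.85-fold, SE 0.34, adjusted p = 5.05e-14) per the authors' deposited table. Map2, which stabilises microtubules in dendrites, rose by 2.42 (SE 0.31, adjusted p = 5.96e-11) per the authors' deposited table. Plxna4, a semaphorin receptor, and Unc5b, a netrin receptor, rose by 1.97 (SE 0.29, adjusted p = 3.17e-08) and 1.62 (SE 0.31, adjusted p = 0.000675) per the authors' deposited table. They were the 2 listed members of 43 axon guidance ligands and receptors. Plxdc2, a plexin-domain membrane protein, rose by 2.26 (SE 0.44, adjusted p = 0.00112) per the authors' deposited table. Another 8 missed the threshold. They were led by Nat8l, which makes N-acetylaspartate, at 1.5 (SE 0.46, adjusted p = 0.584), the Nogo receptor relative Rtn4rl1 at 1.29 (SE 0.44, adjusted p = 1) and the cannabinoid receptor partner Cnrip1 at 1.20 (SE 0.53, adjusted p = 1) per the authors' deposited table. Genes of the synapse were among the smaller values, with Rims3 of the vesicle release machinery at 1.02, the vesicle protein Syp at 0.76 and the glutamate receptor modulator Shisa9 at 0.92, per the authors' deposited table. From the transporter and channel group, the voltage-gated calcium channel subunits Cacna1d and Cacna1a were also listed, at 0.96 and 0.77 per the authors' deposited table. Both had an adjusted p of 1. That group held 7 higher and 4 lower genes, and the GABA and betaine transporter Slc6a12 was among the lower ones at -0.96 (SE 0.40). The serotonin receptor Htr2b, placed in the signalling group, was lower too at -0.88 (SE 0.39). The absence of lower neuronal genes thus depends on where such genes were placed.

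Growth factors, their receptors and modulators gave 13 listed genes, all higher, with a median of 1.08, and 2 of them rose. Bmpr1a, a type I receptor for bone morphogenetic proteins, rose by 2.39 (5.24-fold, SE 0.29, adjusted p = 3.81e-12), and Ltbp2, a matrix protein of the latent TGF-beta binding family, rose by 2.38 (SE 0.37, adjusted p = 5.75e-07) per the authors' deposited table. Bmp2, a ligand of that receptor, stood at 1.58 (SE 0.41, adjusted p = 0.118) and Pmepa1, a feedback inhibitor of TGF-beta signalling, at 1.43 (SE 0.41, adjusted p = 0.358) per the authors' deposited table. Of 31 BMP and TGF-beta receptors and ligands, Bmpr1a and Bmp2 were the 2 listed. Pdgfc, a platelet-derived growth factor, stood at 1.85 (SE 0.48, adjusted p = 0.118), the insulin-like growth factor receptor Igf1r at 1.29 (SE 0.34, adjusted p = 0.165) and the VEGF receptor Flt1 at 1.06 (SE 0.32, adjusted p = 0.489) per the authors' deposited table. With Igf2bp3, they made up the 4 listed genes of 39 gathered around the fibroblast, platelet-derived and insulin-like growth factors. Those 39 were chosen by hand and take in Flt1 and Igf2bp3, which are not members of these families. They leave out Fgf13, of the fibroblast growth factor family, which was listed at 1.08 (SE 0.37) and did not pass. Igf2bp3, an oncofetal protein that binds Igf2 mRNA, rose by 1.82 (SE 0.27, adjusted p = 1.46e-07) per the authors' deposited table. None of 33 Wnt and Frizzled genes was listed, although Frat1, an activator of Wnt signalling outside that list, stood at 0.76 (SE 0.26, adjusted p = 1) per the authors' deposited table.

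Cell adhesion gave 8 higher genes of 9, and 3 rose. Fat3, a giant atypical cadherin, rose by 2.21 (4.61-fold, SE 0.25, adjusted p = 9.42e-14) per the authors' deposited table; with Clstn1, both listed members of 29 cadherin-superfamily genes rose. Itga9, an integrin subunit that binds tenascin C, rose by 2.15 (SE 0.35, adjusted p = 2.94e-06) and was the 1 listed integrin of 26 per the authors' deposited table. Antxr1, a collagen-binding anthrax toxin receptor, rose by 2.33 (SE 0.52, adjusted p = 0.0128) per the authors' deposited table. The gap junction protein Gja1 stood at 1.76 (SE 0.55, adjusted p = 0.643) and the junction scaffold Afdn at 1.15 (SE 0.36, adjusted p = 0.642) per the authors' deposited table.

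Extracellular matrix and protease genes numbered 16, with 12 higher and 4 lower. Serpine2, a secreted inhibitor of thrombin and plasminogen activators, rose by 4.29 (19.5-fold, SE 0.48, adjusted p = 5.05e-14) per the authors' deposited table and was 1 of 3 listed serpins of 18. The others, Serpinb9b and Serpinb6b, are neighbours on chromosome 13 and stood at -1.26 (SE 0.43, adjusted p = 1) and 0.83 (SE 0.42, adjusted p = 1) per the authors' deposited table. Mmp13, an interstitial collagenase, stood at 0.83 (SE 0.32, adjusted p = 1) per the authors' deposited table. Basement membrane collagens stood together without passing the adjusted threshold, Col4a1 at 1.43 (SE 0.36, adjusted p = 0.0932), Col4a6 at 1.11 (SE 0.30, adjusted p = 0.218) and Col4a2 at 1.00 (SE 0.28, adjusted p = 0.24) per the authors' deposited table. Gm15418, which lies next to Col4a1, stood at 1.12 (SE 0.40, adjusted p = 1) per the authors' deposited table. Lysosomal cysteine proteases stood in both lists: Ctsk, the collagen-degrading cathepsin of osteoclasts, fell by 1.89 (SE 0.35, adjusted p = 0.000238), Ctsl stood at -0.81 (SE 0.24, adjusted p = 0.405) and Ctsf at 1.22 (SE 0.48, adjusted p = 1) per the authors' deposited table. Ctla2a and Ctla2b, which resemble cathepsin propeptides and inhibit cysteine proteases, stood at 1.36 (SE 0.34, adjusted p = 0.093) and 0.78 (SE 0.37, adjusted p = 1) per the authors' deposited table. Ctsk was the 1 listed gene of 12 osteoclast markers.

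Cell cycle and survival genes were few. Cdkn2a, the locus of the p16 and Arf inhibitors and a classical PRC2 target, rose by 2.69 (6.47-fold, SE 0.57, adjusted p = 0.00722) per the authors' deposited table, and was the 1 listed gene of 8 cyclin-dependent kinase inhibitors. The G1 cyclin Ccnd2, whose kinase partners p16 inhibits, stood at 2.12 (SE 0.55, adjusted p = 0.121), and the mitotic phosphatase Cdc25b at -0.75 (SE 0.24, adjusted p = 0.658) per the authors' deposited table. Cdca3, a trigger of mitotic entry, stood at -0.83 (SE 0.30, adjusted p = 1) per the authors' deposited table. None of 30 other replication and mitosis genes, a set that leaves out Cdc25b and Cdca3, was listed. All 3 listed Bcl2a1 genes, which encode anti-apoptotic proteins of the Bcl-2 family, were higher: Bcl2a1b rose by 1.47 (SE 0.32, adjusted p = 0.00958), and Bcl2a1a and Bcl2a1d stood at 1.09 (SE 0.29, adjusted p = 0.187) and 0.85 (SE 0.30, adjusted p = 1) per the authors' deposited table. These are near-identical copies on chromosome 9, and reads can be hard to assign among them.

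Transcription factors gave 12 listed genes, all higher, of which 1 rose. Sox4, an SRY-box factor of progenitor cells, rose by 1.46 (SE 0.32, adjusted p = 0.0128) and its neighbour Gm46406, a predicted gene, by 1.53 (SE 0.36, adjusted p = 0.0282) per the authors' deposited table. The others did not pass, among them Tox2 at 1.59 (SE 0.58, adjusted p = 1), the immediate-early factor Egr3 at 1.56 (SE 0.43, adjusted p = 0.22) and Zeb1, a repressor of epithelial genes, at 1.32 (SE 0.35, adjusted p = 0.187) per the authors' deposited table. None of 39 Hox genes and none of 66 other developmental transcription factors chosen by hand was listed. Those sets leave out Sox4 and Zeb1, and also Eya1 at 0.79 (SE 0.32) and Plag1 at 0.78 (SE 0.29). Neither Eya1 nor Plag1 passed, and the counts do not say how many developmental genes the list holds.

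Genes of the cytoskeleton, protein handling and metabolism were mostly higher as well. Arhgap32, a GTPase-activating protein, rose by 1.72 (SE 0.33, adjusted p = 0.000456), the cytoskeletal linker Dst by 1.29 (SE 0.28, adjusted p = 0.0103) and the membrane-shaping protein Cibar1 by 1.31 (SE 0.30, adjusted p = 0.02) per the authors' deposited table. Zdhhc15, a palmitoyltransferase, rose by 2.23 (SE 0.32, adjusted p = 1.11e-08) per the authors' deposited table. Kctd17, an adaptor of a ubiquitin ligase, rose by 1.08 (SE 0.25, adjusted p = 0.0254) and the sorting receptor Sorl1 by 1.00 (SE 0.24, adjusted p = 0.047) per the authors' deposited table. Enzymes that rose were the ceramide synthase Cers4 at 1.29 (SE 0.30, adjusted p = 0.0368), the phospholipase Plaat3 at 1.31 (SE 0.30, adjusted p = 0.0273) and Enpp1, which makes pyrophosphate from extracellular ATP, at 1.07 (SE 0.25, adjusted p = 0.0394) per the authors' deposited table. Slc40a1, the iron exporter ferroportin, rose by 1.17 (SE 0.25, adjusted p = 0.00526), and Slco2b1, an organic anion transporter, by 1.15 (SE 0.28, adjusted p = 0.0475) per the authors' deposited table. The glycolytic enzyme Pkm and its neighbour in the pathway Ldhb stood at 2.08 (SE 0.92, adjusted p = 1) and 1.64 (SE 0.40, adjusted p = 0.064) per the authors' deposited table. In lipid handling, the desaturase Scd1 and the fatty acid carrier Fabp4 stood at 1.43 (SE 0.58, adjusted p = 1) and 0.79 (SE 0.32, adjusted p = 1) per the authors' deposited table. G protein, lipid and kinase signalling had 12 higher genes of 14 and none that passed, with the myotonic dystrophy kinase Dmpk at 1.96 (SE 0.88, adjusted p = 1), the guanine nucleotide exchange factor Ralgps2 at 1.59 (SE 0.40, adjusted p = 0.0885) and the adenylyl cyclase Adcy3 at 1.24 (SE 0.37, adjusted p = 0.462) per the authors' deposited table. RNA-binding proteins included the neural regulators Msi2 at 0.95 (SE 0.26, adjusted p = 0.223) and Rbfox2 at 0.89 (SE 0.29, adjusted p = 0.735) per the authors' deposited table. Rps27a, a ribosomal protein fused to ubiquitin that has many processed copies, rose by 3.79 (SE 0.76, adjusted p = 0.00196) per the authors' deposited table; it was the 1 ribosomal protein gene in the list.

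On the X chromosome all 9 listed genes were higher, among them Bhlhb9 and Armcx2, of the armadillo-repeat family expressed in brain, which rose by 1.76 (SE 0.27, adjusted p = 2.19e-07) and 1.30 (SE 0.26, adjusted p = 0.00158) per the authors' deposited table. Tceal1, a transcription elongation factor-like gene also on the X chromosome, stood at 1.13 (SE 0.33, adjusted p = 0.429) per the authors' deposited table. Xist and 4 Y-linked genes were looked for, and none was listed in unstimulated or tolerant cells, while 1 was listed in primed cells. Absence from a list does not show that the groups were of the same sex. Tmem178, a membrane protein of the endoplasmic reticulum, and Nynrin, a gene derived from a retroviral integrase, rose by 2.92 (SE 0.47, adjusted p = 2.94e-06) and 1.59 (SE 0.29, adjusted p = 0.000229) per the authors' deposited table. With Bhlhb9, Armcx2 and Gm46406 they were the 5 that rose among the 33 unplaced genes, of which 24 were higher and 9 lower. Unplaced genes short of the threshold included Ndrg2 at 1.54 (SE 0.47, adjusted p = 0.489) and the microRNA gene Mir7050 at -1.12 (SE 0.32, adjusted p = 0.348) per the authors' deposited table.

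Immune genes moved in both directions. The class II genes H2-Eb1, H2-Ab1 and H2-Aa, neighbours on chromosome 17 that encode chains presenting peptides to CD4 T cells, were the 3 that rose among 7 MHC-related genes, by 1.69 (SE 0.32, adjusted p = 0.000563), 1.63 (SE 0.31, adjusted p = 0.000544) and 1.51 (SE 0.35, adjusted p = 0.038) per the authors' deposited table. Cd74, which escorts them to the endosome, lies on another chromosome and stood at 1.10 (SE 0.47, adjusted p = 1) per the authors' deposited table. Together these were the 4 listed genes of 15 in class II presentation; the class II transactivator Ciita was not listed. All 3 listed class I genes, H2-Q2, H2-Q10 and H2-Q4, were lower, at -1.19 (SE 0.37, adjusted p = 0.587), -1.01 (SE 0.29, adjusted p = 0.343) and -0.78 (SE 0.29, adjusted p = 1) per the authors' deposited table. These are neighbouring gene copies, so reads may be shared among them. The direction did not hold in the other states: H2-Q10 was listed at 1.67 in primed cells, and H2-Q2 in both directions in tolerant cells. Ly6c1, a surface protein of monocytes and endothelium, rose by 7.51 (182-fold, SE 1.42, adjusted p = 0.000456) per the authors' deposited table, while its near-identical neighbour Ly6c2 was not listed. Cd55, which protects cells from complement, rose by 1.99 (SE 0.34, adjusted p = 3.25e-05) per the authors' deposited table. Of 26 genes of alternative activation 4 were listed and all were higher, though none passed: F13a1, the mannose receptor Mrc1 at 1.24 (SE 0.44, adjusted p = 1), the transcription factor Irf4 at 0.95 (SE 0.33, adjusted p = 1) and Gas6, a bridging ligand for apoptotic cells, at 0.78 (SE 0.39, adjusted p = 1) per the authors' deposited table. Tmem176a and Tmem176b, a pair of neighbouring ion channel genes of antigen-presenting cells, stood at 2.05 (SE 0.51, adjusted p = 0.0848) and 2.23 (SE 0.64, adjusted p = 0.343) per the authors' deposited table.

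The lower list was led by Gm7592, a predicted gene on chromosome 1 that fell by 3.67 (12.7-fold lower, SE 0.35, adjusted p = 1.6e-20) per the authors' deposited table. Both lysozyme genes fell, Lyz1 by 1.86 (SE 0.31, adjusted p = 5.88e-06) and Lyz2 by 1.17 (SE 0.26, adjusted p = 0.0128) per the authors' deposited table. Cre is inserted in Lyz2 in LysM-Cre mice, and the part of that insertion in the Lyz2 value was not tested. Lyz1 is the neighbouring copy of Lyz2, so reads may be shared between them. The part of such sharing in the Lyz1 value was not tested either. Ptgs2, the inducible cyclooxygenase, Cxcl2, a neutrophil-attracting chemokine, and Il1rn, an interleukin-1 antagonist, stood at -1.13 (SE 0.45, adjusted p = 1), -1.43 (SE 0.56, adjusted p = 1) and -0.99 (SE 0.31, adjusted p = 0.63) per the authors' deposited table. Against them, the chemokine Cxcl14 stood at 1.07 (SE 0.50, adjusted p = 1) and Hpgd, which inactivates prostaglandins, at 2.31 (SE 0.78, adjusted p = 1) per the authors' deposited table. The stress chaperones Hspa1a and Hspa1b stood at -0.82 (SE 0.25, adjusted p = 0.489) and -0.77 (SE 0.23, adjusted p = 0.396) per the authors' deposited table, the 2 listed of 20 heat shock genes. Interferon-inducible genes split, with Apol9b at -1.40 (SE 0.61, adjusted p = 1) and Slfn1 at -1.06 (SE 0.34, adjusted p = 0.731) beside the GTPase Iigp1 at 1.08 (SE 0.32, adjusted p = 0.424) per the authors' deposited table; 4 of the 6 listed were lower and none passed. None of 33 Toll-like receptor pathway genes and none of 16 chemokine receptors was listed.

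Immunoglobulin-like receptor genes on 4 chromosomes made up 22.6% of the lower list, 12 of 53 genes, counting 3 predicted genes that were placed here by position and have no annotated role. Paired immunoglobulin-like receptors (Pira) and their relatives signal through an adaptor with an activating motif, and SIRP-beta receptors use a similar partner. On chromosome 7, the 6 genes Pira1, Gm15448, Pira2, Gm10693, Gm14548 and Lilra6 lie in a run of 8 RefSeq genes, and all 6 were lower, between -1.26 and -0.80 per the authors' deposited table. They include all 5 protein-coding genes that the RefSeq table places between Pira1 and Lilra6. None of the 6 passed the adjusted threshold. On chromosome 3, Sirpb1c fell by 1.30 (SE 0.29, adjusted p = 0.017), and Sirpb1b and Sirpb1a stood at -1.13 (SE 0.34, adjusted p = 0.545) and -0.81 (SE 0.29, adjusted p = 1) per the authors' deposited table. Cd300ld2 on chromosome 11 stood at -3.62 with an SE of 1.04 (adjusted p = 0.344), and the neighbours Treml2 and B430306N03Rik on chromosome 17 stood at -0.91 (SE 0.39, adjusted p = 1) and -0.82 (SE 0.30, adjusted p = 1) per the authors' deposited table. Copies within these clusters are similar in sequence, so reads may be shared among them, and the 6 values on chromosome 7 need not be separate measurements. Fcrls, an Fc receptor-like scavenger receptor of macrophages, was the 1 listed gene of this kind that was higher, at 1.10 (SE 0.30, adjusted p = 0.219) per the authors' deposited table.

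**Figure D3:**
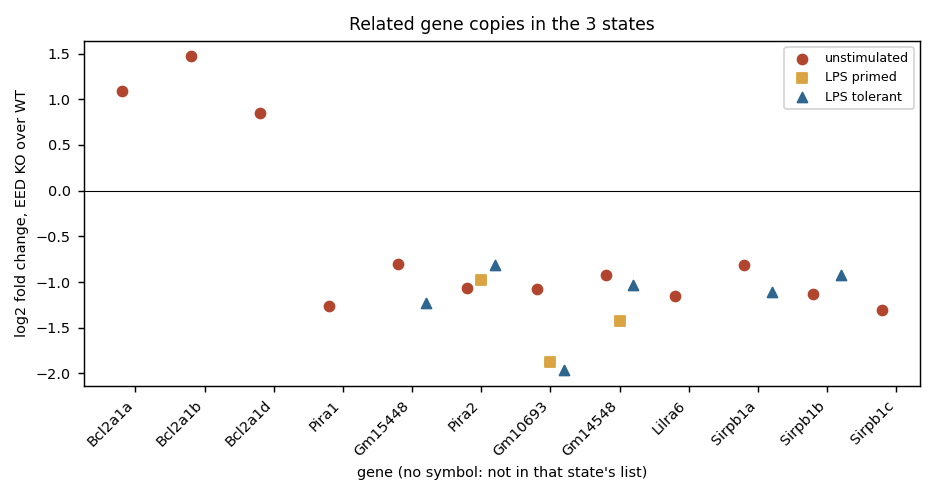
Log2 fold change of EED KO over WT (y axis) of related gene copies, each family on 1 chromosome (x axis), unstimulated cells first and then both LPS states, where a missing symbol means that the gene is not in that state's list. The 3 Bcl2a1 genes appear above 0 in unstimulated cells, and the 6 genes from Pira1 to Lilra6 and the 3 Sirpb1 genes lie below 0 in each state that lists them.

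Some listed genes were neighbours. Of the 223 members found in the RefSeq table by symbol, 43 lay within 100 kb of another member and formed 33 pairs, of which 29 had the same direction, 11 with both genes higher and 18 with both lower. The Pira run alone gave 12 of the pairs, all lower. Outside it, 17 of 21 pairs had the same direction, 11 of them with both genes higher and 6 with both lower. No number of pairs for other gene lists was computed, and most rows are higher, so these counts are a description. Among the higher pairs were H2-Ab1 with H2-Aa and H2-Eb1, Col4a1 with Col4a2, Tmem176b with Tmem176a, Ctla2b with Ctla2a, Igf1r with Pgpep1l, and Dmwd with Dmpk, the kinase gene of myotonic dystrophy. Ms4a4a and Ms4a4c, neighbouring members of a membrane-protein family, were opposite, at 1.33 and -0.88 with adjusted p of 1 per the authors' deposited table. Chromosomes 7 and 17 held 10 and 8 of the lower genes beside 10 and 7 higher ones, and chromosomes 4, 8, 12, 16 and X held higher genes only, 8, 11, 8, 3 and 9 of them.

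The promoters of higher genes held more CpG dinucleotides than those of lower genes, a feature that the selection did not use. A RefSeq promoter sequence of 300 bases (build GRCm38.p6, 250 before and 50 after the start) was found by symbol for 174 members, 132 higher and 42 lower. The observed CpG count over that expected from the base content had a median of 0.64 in higher genes and 0.19 in lower genes, against 0.39 in all 27025 genes of the table and 0.56 in its protein-coding genes. Nearly all matched members are protein-coding, and the 130 higher ones among them had a median of 0.65. A promoter was called CpG-rich at over 50% GC and a ratio over 0.6, and 54.5% of higher genes (72 of 132) and 23.8% of lower genes (10 of 42) met this, against 33.2% of all genes in the table and 44.6% of its protein-coding genes. The share was 53.3% among genes that rose and 54.9% among higher genes that did not pass. In a split chosen after the data had been seen, leaving out the Pira, Lilra6, Sirpb1, lysozyme, H2, predicted and clone-named genes raised the share of the lower genes to 33.3% (9 of 27) and their median ratio to 0.47, which is above that of all genes in the table. The low median of the lower genes thus rests in part on these gene copies and predicted genes. Without them, the median of 0.47 and the share of 33.3% were still below the 0.56 and 44.6% of protein-coding genes. Neither the higher genes nor the background sets were filtered in this way, so these values stand beside unfiltered ones. In the other states, 38.5% of the LPS primed and 57.4% of the LPS tolerant higher genes were CpG-rich, beside 46.8% and 33.9% of the lower genes of those states. These are descriptions without a test, and the table includes genes that macrophages do not express.

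**Figure D4:**
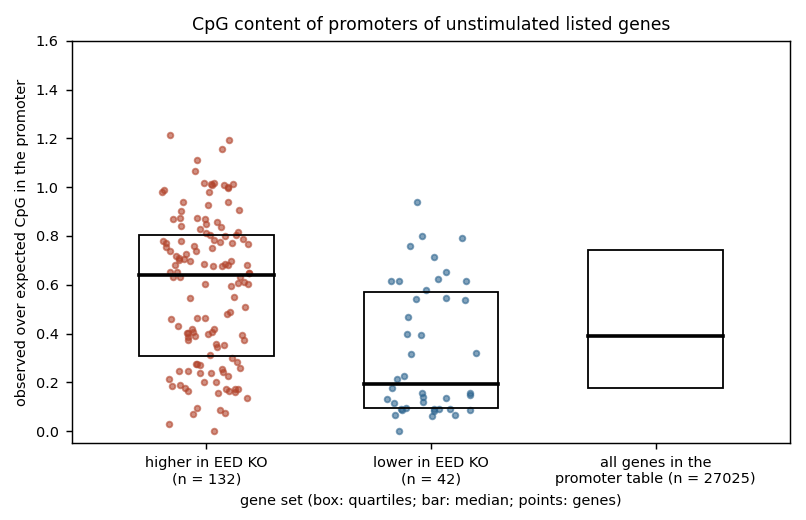
Observed over expected CpG in the promoter (y axis) for the 132 higher and 42 lower unstimulated genes, with points for genes, boxes for quartiles and bars for medians, and for all 27025 genes of the promoter table as a box. The median of the higher genes, 0.64, lies above and that of the lower genes, 0.19, below the 0.39 of all genes. Protein-coding genes alone have a median of 0.56, and the lower genes without gene copies and predicted genes one of 0.47. The higher genes were not filtered in this way.

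Serpine2, Bmpr1a and Fat3 show the CpG-rich kind among the genes that rose, and Ctsk, Lyz2 and Sirpb1c the CpG-poor kind among those that fell. Lyz2 is also where Cre is inserted, and Eed, the targeted gene, fell too but has a CpG-rich promoter. Capitals mark CpG dinucleotides. The promoters shown are given 5′ to 3′ on the gene's strand, from RefSeq with build GRCm38.p6.
Serpine2 (chr1:79858616-79858915, minus strand, 41 CpG): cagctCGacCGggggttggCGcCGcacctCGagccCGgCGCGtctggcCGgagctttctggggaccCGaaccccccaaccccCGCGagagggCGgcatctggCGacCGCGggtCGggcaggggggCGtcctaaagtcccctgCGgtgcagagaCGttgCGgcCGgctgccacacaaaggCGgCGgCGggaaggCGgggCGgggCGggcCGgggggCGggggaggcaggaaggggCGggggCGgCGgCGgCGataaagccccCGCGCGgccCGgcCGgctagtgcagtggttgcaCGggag
Bmpr1a (chr14:34502497-34502796, minus strand, 48 CpG): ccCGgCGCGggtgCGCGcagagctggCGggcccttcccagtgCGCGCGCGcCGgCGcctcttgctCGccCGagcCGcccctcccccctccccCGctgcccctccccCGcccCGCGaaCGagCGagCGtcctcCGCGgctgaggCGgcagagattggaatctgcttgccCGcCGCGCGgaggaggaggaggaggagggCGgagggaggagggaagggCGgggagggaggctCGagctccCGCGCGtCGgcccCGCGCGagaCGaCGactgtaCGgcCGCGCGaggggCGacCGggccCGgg
Fat3 (chr9:16502005-16502304, minus strand, 35 CpG): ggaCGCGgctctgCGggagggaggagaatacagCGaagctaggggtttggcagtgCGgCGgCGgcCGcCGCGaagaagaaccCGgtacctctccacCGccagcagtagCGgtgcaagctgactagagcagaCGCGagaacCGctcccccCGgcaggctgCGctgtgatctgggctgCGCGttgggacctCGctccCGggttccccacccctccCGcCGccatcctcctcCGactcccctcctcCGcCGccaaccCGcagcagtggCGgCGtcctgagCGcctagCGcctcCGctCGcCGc
Ctsk (chr3:95498960-95499259, plus strand, 2 CpG): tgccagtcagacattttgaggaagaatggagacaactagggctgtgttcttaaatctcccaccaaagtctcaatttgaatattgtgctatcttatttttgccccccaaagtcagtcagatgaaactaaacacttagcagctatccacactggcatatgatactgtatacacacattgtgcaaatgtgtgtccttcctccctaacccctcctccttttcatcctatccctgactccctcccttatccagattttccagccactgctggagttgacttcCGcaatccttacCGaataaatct
Lyz2 (chr10:117282223-117282522, minus strand, 1 CpG): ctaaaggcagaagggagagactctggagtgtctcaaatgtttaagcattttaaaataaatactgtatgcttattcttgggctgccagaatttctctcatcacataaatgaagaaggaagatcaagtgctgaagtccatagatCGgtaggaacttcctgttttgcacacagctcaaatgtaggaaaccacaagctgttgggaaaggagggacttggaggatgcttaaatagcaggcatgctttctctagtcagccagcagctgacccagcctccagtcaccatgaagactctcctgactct
Sirpb1c (chr3:15848438-15848737, minus strand, 2 CpG): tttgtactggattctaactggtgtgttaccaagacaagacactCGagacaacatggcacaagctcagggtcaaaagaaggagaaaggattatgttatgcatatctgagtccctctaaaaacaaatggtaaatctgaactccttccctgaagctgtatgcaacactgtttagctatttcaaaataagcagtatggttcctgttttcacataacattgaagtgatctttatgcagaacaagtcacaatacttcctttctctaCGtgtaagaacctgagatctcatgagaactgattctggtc

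Cdkn2a has a pair of promoters in the table. The first holds 45 CpG with a ratio of 1.04 and the second 12 CpG with a ratio of 0.44, and the deposited row does not say which of its transcripts changed. Class II promoters were different again: H2-Aa and H2-Eb1 hold 3 and 0 CpG, and both carry the letters CTGATTGG of the Y box, to which the trimeric factor NF-Y binds in class II genes. The letters begin 51 bases before the start in H2-Aa and 62 bases before it in H2-Eb1, and are in capitals here. In a search of both strands, CTGATTGG occurred in 4.70% of all genes in the table, in 5 of the 132 higher genes and in 2 of the 42 lower ones, Hspa1a and Hspa1b.
H2-Aa (chr17:34287774-34288073, minus strand): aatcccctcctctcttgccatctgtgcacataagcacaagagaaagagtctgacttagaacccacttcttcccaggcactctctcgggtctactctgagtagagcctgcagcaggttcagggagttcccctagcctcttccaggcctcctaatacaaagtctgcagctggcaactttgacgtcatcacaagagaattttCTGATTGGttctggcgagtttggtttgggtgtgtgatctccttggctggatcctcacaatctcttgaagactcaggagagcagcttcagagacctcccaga
H2-Eb1 (chr17:34305617-34305916, plus strand): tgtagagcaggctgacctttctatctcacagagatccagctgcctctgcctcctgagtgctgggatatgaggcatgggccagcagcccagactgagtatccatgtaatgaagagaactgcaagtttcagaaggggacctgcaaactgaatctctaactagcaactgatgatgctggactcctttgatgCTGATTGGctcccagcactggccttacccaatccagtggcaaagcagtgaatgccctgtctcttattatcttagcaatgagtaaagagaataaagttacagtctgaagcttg

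Markers of other cell types that could be present in marrow cultures were mostly absent from the list. Of the macrophage markers, 2 of 25 were listed, Lyz2, which fell, and C1qa, a chain of complement C1q, at 1.19 (SE 0.46, adjusted p = 1) per the authors' deposited table. A marker that is not listed can still be expressed at any level, so the labelled cell type could not be checked against its markers. None of the neutrophil (20), mast cell, basophil and eosinophil (17), stromal (19) and endothelial or epithelial (16) markers was listed. One gene each was listed of the B cell, dendritic cell, progenitor and T cell markers, with Ighm at 1.63 (SE 0.42, adjusted p = 0.132), Cd24a at 0.93 (SE 0.29, adjusted p = 0.573), Cd34 at 1.84 (SE 0.49, adjusted p = 0.153) and Il7r at -0.76 (SE 0.28, adjusted p = 1) per the authors' deposited table. Beside the class II genes, Ighm and Cd24a were thus higher too, and the part of B cells or dendritic cells in those values was not tested. Of 18 monocyte genes, 3 were listed: Ly6c1, F13a1 of the clotting cascade at 2.19 (SE 0.59, adjusted p = 0.187) and Ms4a4c at -0.88 (SE 0.30, adjusted p = 1) per the authors' deposited table.

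The unstimulated list was then set beside the lists of the LPS primed and LPS tolerant cells, whose comparisons use other libraries with the same replicate numbers in the labels; whether the same mice gave cells to several states is not stated there. By Ensembl identifier, 72 of the 227 genes (31.7%) were also listed in primed cells, which is 19.1% of that list, and 57 (25.1%) in tolerant cells, which is 13.8% of that list. The direction was the same for 68 of the 72 and for 54 of the 57. H2-Q2, listed in both directions in tolerant cells, was counted there as not the same. By this matching, 137 genes, 60.4%, were in neither other list. That count takes in the 7 genes without an identifier, which could not be matched. By gene symbol, 73 genes were also listed in primed and 59 in tolerant cells. Gm14548, without an identifier, was listed by symbol in both, and Gm15448 in tolerant cells. Both other lists held 39 of the 227 (17.2%) by identifier. Among the 44 genes that rose or fell, 18 (40.9%) were in both other lists and 17 were in neither. Of the 183 that did not pass, 21 (11.5%) were in both. The 18 count Eed, the targeted gene, Lyz2, where Cre is inserted, and its neighbour Lyz1. They also include Clstn1, Bmpr1a, Cd55, Plxdc2, Igf2bp3, Bmi1 and Kctd17. The 17 in neither are Cdkn2a, Map2, Zdhhc15, Fat3, Bhlhb9, Arhgap32, Nynrin, Gm46406, Bcl2a1b, Sox4, Cibar1, Cers4, Slco2b1, Enpp1, Gm7592, Ctsk and Sirpb1c. Gm46406 has no identifier and could not be matched this way. Absence from a list does not show that a gene was unchanged there, and for these 17 the difference between states was not tested.

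For genes listed in 2 states the fold changes could be compared, in 128 differences over 90 genes, with a two-sided normal test on the approximate SE and Benjamini-Hochberg adjustment over all 128. H2-Q2 was left out for tolerant cells, where the authors listed it in both directions. In 9 of them, 7.03%, the adjusted p was under 0.05. In 6 of these 9 the fold changes had opposite signs, and since each had been listed for its size and unadjusted p, the listing nearly fixed that outcome; those 6 are a description. Of the 122 differences with equal signs, 3 passed, at Ly6c1 and Tmem178. Ly6c1 was higher by 7.51 in unstimulated cells, against 1.98 in primed and 1.26 in tolerant cells (differences of 5.53 and 6.25, adjusted p = 0.00521 and 0.00158). Tmem178 stood at 2.92 in unstimulated and 0.91 in primed cells (difference 2.00, SE 0.65, adjusted p = 0.0276). Tuba1a, an alpha-tubulin with close paralogs, was at -1.06 in unstimulated cells but at 2.14 in tolerant cells (difference -3.21, SE 0.40, adjusted p = 2.19e-13). Serpine2 was listed at 4.29, 2.30 and 2.17 in unstimulated, primed and tolerant cells, and neither difference passed (adjusted p = 0.245 and 0.115). With the SE taken from a t quantile instead, both did (adjusted p = 0.000741 and 0.000133). The 3 class II genes had no difference that passed either, while all 6 passed with the t quantile, the largest adjusted p being 0.0431. H2-Eb1 stood at 1.69, 1.52 and 0.94 in the same order of states. By its construction the t quantile makes the SE very small for rows with a very small p. Eed, for example, passed by it at a difference of 0.55 from primed cells. Passing by the t quantile therefore does not decide whether Serpine2 or the class II genes differ between states. A gene could enter this comparison only if the authors had listed it in both states, which leaves out genes with small values in one of them. Genes without an Ensembl identifier were left out too.

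**Figure D5:**
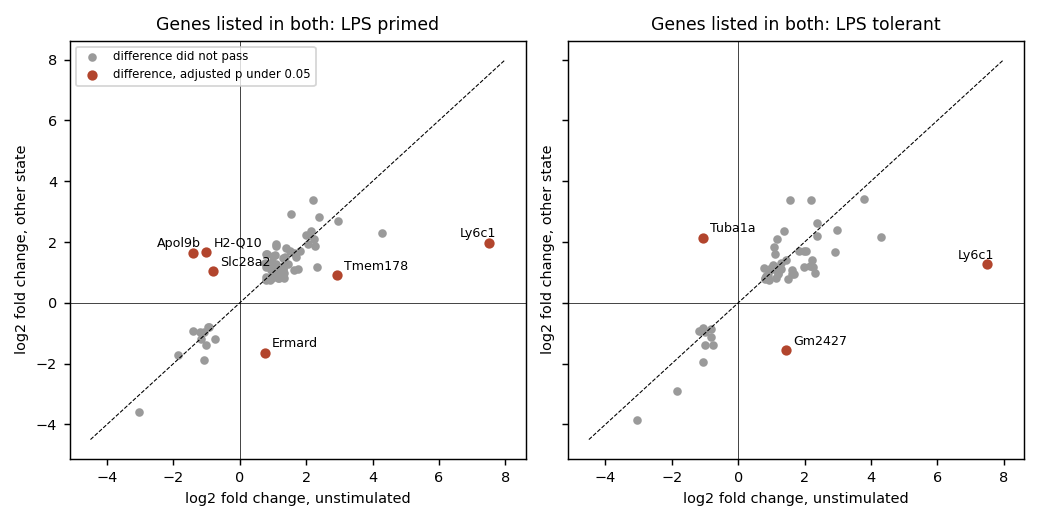
Log2 fold change of EED KO over WT in unstimulated cells (x axis) against that in LPS primed (left) and LPS tolerant cells (right, y axis) for genes listed in both, with the dashed line for equal values. The 9 differences with an adjusted p under 0.05 are coloured and named, with Ly6c1 at 7.51 in unstimulated cells far to the right in both panels; the empty band around 0 is the authors' minimum fold change.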

How the data were processed

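RNA was measured by stranded mRNA sequencing with paired reads, per the labels' protocols. Per the submitters' processing notes, tools included HISAT2 and edgeR under R 4.0.3, and GRCm39 was a build; which annotation, filters and test were applied is not given in the sources used here. For each state the authors deposited a list of higher and a list of lower genes with log2 fold changes (base assumed), unadjusted p-values and adjusted p-values. The direction was read from Eed, which stands in the lower lists. Depth per library is unknown, no model was fitted, and replicates may be technical, since the labels do not tie them to separate mice. The members, gene lists and gene groups were chosen with earlier results of these data known. All 227 rows could be named; full values went to rows with an adjusted p under 0.05 and to members of the gene lists, and other rows served as examples. Of the rows, 220 have an Ensembl identifier. Differences between states were computed from the deposited values with Python 3.11.15 and scipy 1.17.1 after a test on made tables. Gene order and promoters come from RefSeq tables of GRCm38.p6, used for names, neighbours and sequence only. Alternatives were other thresholds, other matching, another standard error, another background and another distance.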

Additional observations from a re-analysis of the deposited data

Results flagged for a closer look

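Fold changes of EED KO over WT cells differed between unstimulated cells and another state in 9 cases, by a test of the difference on the approximate SE. Both values of each had been selected by the authors' listing, which nearly fixed the outcome where the signs were opposite, so that for Ermard, H2-Q10, Apol9b, Slc28a2, Gm2427 and Tuba1a the values are a description. The count also rests on the error model, with 57 differences past the threshold when the SE comes from a t quantile. Unstimulated minus LPS primed came to 5.53 for Ly6c1, 2.00 for Tmem178, 2.39 for Ermard, -2.68 for H2-Q10, -3.05 for Apol9b and -1.85 for Slc28a2. Unstimulated minus LPS tolerant came to 6.25 for Ly6c1, 3.00 for Gm2427 and -3.21 for Tuba1a. Ermard stood at 0.75 in unstimulated and -1.64 in primed cells, H2-Q10 at -1.01 and 1.67, Apol9b at -1.40 and 1.65, and Slc28a2 at -0.81 and 1.04. Gm2427, next to Gm7592 on chromosome 1, stood at 1.45 in unstimulated and -1.55 in tolerant cells. In unstimulated cells, Ly6c1 and Tmem178 are the genes of these 8 that passed the adjusted threshold. Ly6c1, H2-Q10, Apol9b and Tuba1a have close sequence relatives, and the part of read assignment in their values was not tested. Ly6c1 in unstimulated cells has an approximate SE of 1.42, and the fold change alone does not tell how low its level was in WT cells.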

How the results depend on the processing

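No paired analysis was possible because the deposited tables hold no values per library, and for the same reason no replicate could be left out in turn. With an absolute log2 fold change of at least 1, the list held 110 higher and 26 lower genes. At an adjusted p under 0.01, 25 genes were higher, and without predicted genes and the Ly6, H2 and Lyz genes 3 of the 6 lower ones were left. The genes also listed in primed and tolerant cells numbered 14 and 10 when an adjusted p under 0.05 was asked in both lists, and 43 and 34 with an absolute log2 fold change of at least 1 in both. With the standard error taken from a t quantile with 4 degrees of freedom, 57 of the 128 differences between states passed, the 9 reported ones among them. By its construction that quantile makes the standard error smaller the smaller the p, so the count of differences rests on the error model. Against protein-coding promoters alone, the excess of CpG-rich promoters among higher genes was 10.8 percentage points, instead of 21.4, and the lower genes were at -20.8 points, instead of -9.38. Within 1 Mb, 75 neighbouring pairs were found. The other alternatives moved no count of genes by over 1.5 times.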
